A study of Mus musculus with 4 samples.

Results

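The shape of peaks of H3K4me3, the trimethylated form of lysine 4 on histone H3, was examined at fine scale in MEF, the fibroblasts that grow out when a mouse embryo is put into culture. The library was chosen by its label as the H3K4me3 immunoprecipitation of MEF, and it is 1 of the 4 chromatin immunoprecipitation sequencing libraries of the study. The other 3, used as reference only, were H3K27me3 in MEF, H3K9me3 in MEF and H3K9me3 in secondary MEF. The ordinary MEF were kept in DMEM medium with 10% serum, and the labels give neither their strain nor their genotype. The secondary MEF carry doxycycline-inducible Klf4, Sox2 and Oct4. Their source was induced pluripotent stem cells with an Oct4-selectable cassette that were put into BDF2 blastocysts. The chimeras were taken 13.5 days post coitum, and 2 µg/ml puromycin over 48 hours selected the fibroblasts of the injected line, which then grew in 10% calf serum. No doxycycline treatment of the fibroblasts is stated in the labels. Per the file headers, this library was sequenced on another flow cell than the 3 MEF libraries. Each group held 1 library, so no value below has a replicate check, and intervals cover counting error or the spread over peaks only.

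H3K4me3 is laid down by SET1 and MLL methyltransferase complexes around transcription start sites, above all at promoters in CpG islands. Nucleosomes that carry it flank a stretch of open DNA at the start site, where transcription factors and RNA polymerase II bind, so a promoter in this kind of map is often a pair of humps around a dip. The mark is read by proteins with PHD fingers, among them a subunit of the general transcription factor TFIID. Peaks here are named by position on mouse build mm8. A gene annotation and genome sequence of that build were not used here, so peaks were not tied to genes, no sequence is printed, and the labelled cell type was not checked against marker genes.

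The H3K4me3 library held 12027212 autosomal reads with a single genome location, of which 10989113 (91.4%) were distinct in position and strand. These distinct reads were moved 75 bp towards their 3′ end and counted in 200 bp bins. The mean was 1.38 reads per bin over the 7946596 bins with a read in any of the 4 libraries, and all folds below are over a library's own mean of this kind. Bins passed with both an adjusted Poisson value under 0.001 and 4 times the mean, which set the lowest count at 9 reads (6.51-fold). By this rule 153514 bins (1.93%) were called. Called bins separated by at most 2 uncalled bins were joined, and a peak needed at least 2 called bins.

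H3K4me3 was packed into short and steep peaks. There were 20764 peaks and, beside them, 11577 called bins that stood alone. Together the peaks covered 31.8 Mb, or 2.00% of the tested bins, and held 48.6% of the distinct reads. The 4082 peaks with the most reads held 25% of the library's reads. Outside peaks the mean was 0.725 reads per bin. By the same rule the H3K27me3 library of MEF, at 8963279 distinct reads, had 8562 peaks (0.715% of bins called), of median width 800 bp and median height 13.3-fold. The H3K9me3 libraries had 456 peaks in MEF (0.0556% of bins called) and 779 in secondary MEF (0.0938%). Peaks held 7.58%, 0.402% and 0.617% of the reads in these 3 libraries.

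Peak widths ran from 400 bp, the least the rule allows, to 14800 bp. The median was 1200 bp, the middle 50% lay between 600 and 2000 bp, and the 90th percentile was 3000 bp. Widths of 2000 bp or more made up 27.8% of peaks (95% Clopper-Pearson interval 27.2 to 28.4), those of 4000 bp or more 4.09%, and those of 10000 bp or more 0.0915%. Around the highest bin the peaks were far narrower than their full width. The stretch above 0.5 times the height had a median of 400 bp and a 90th percentile of 800 bp. The width depends on the joining rule: with only adjacent called bins joined the median was 800 bp.

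Peak heights, the reads in the highest bin, had a low maximum close to the call threshold and a high maximum. The median was 53 reads (38.3-fold), the 10th percentile 12 reads and the 90th percentile 134 reads. Per step of 1 read there were 620 peaks between 12 and 15 reads and 83.5 between 50 and 59 reads, and then again 115 between 100 and 119 reads. The low maximum lies just above 9 reads, the lowest count that could be called. Bins with fewer reads and the 11577 called bins that stood alone are left out of these heights. How far this rule shapes the low maximum was not tested. With all reads kept in the same bins the second rise was flatter, from 67.6 peaks per step between 60 and 79 reads to 77.4 between 120 and 139 reads. Width and height rose together (Spearman's rho 0.717, Pearson's r 0.719 on the log2 scale, across 20764 peaks of 1 library, as a description). The median height was 14 reads in the 2911 peaks of 400 bp, 71 reads in the 3124 peaks of 1200 to 1400 bp and 105 reads in the 2994 peaks of 2200 to 3000 bp. Above that it changed less, with 111 reads (109 to 113) for 3200 to 4000 bp, 107 reads (104 to 110) for 4200 to 6000 bp and 118 reads (113 to 125) in the 164 peaks of 6200 to 14800 bp. A higher peak also crosses the call threshold farther from its summit, which by itself ties width to height.

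**Figure D1:**
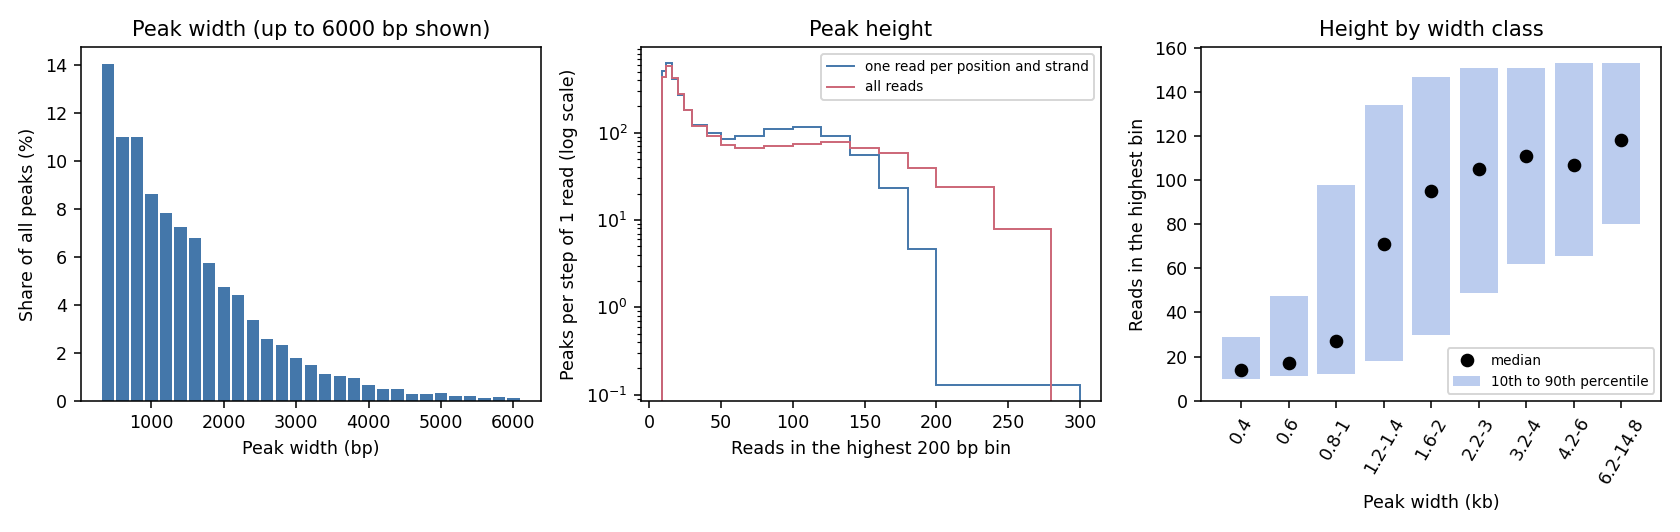
Left, share of the 20764 H3K4me3 peaks at each width up to 6000 bp; middle, number of peaks per step of 1 read (log axis) against reads in the highest 200 bp bin, with 1 read per position and strand or with all reads; right, reads in the highest bin by width class, with the median (points) and the 10th to 90th percentile (bars). Heights show a second rise near 100 to 119 reads, and the median height lies between 105 and 118 reads in the classes above 2000 bp.

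Counting distinct positions removed a larger share of the reads in the highest peaks than in low ones. A 200 bp bin has 400 combinations of position and strand. In the 106 peaks with 180 distinct reads or more, the median was 187.5 distinct reads (46.9% of the 400) and 290 reads in all, or 1.57 reads per position. In the 5661 peaks of 9 to 19 reads this was 1.04, and outside peaks it was 1.02. Repeated reads can be PCR copies of the 18 amplification cycles or separate fragments with the same end, and these were not told apart. The 10th to 90th percentile range of heights was 12 to 134 distinct reads and 13 to 181 reads in all.

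Single peaks show the range of shapes. A peak of median width on chromosome 1, from 57974201 to 57975400, held 13, 25, 56, 30, 22 and 35 reads in its 6 bins, with 1 read in the bin before and 4 in the bin after. It rose to its summit over 3 bins and had a low shoulder on the right. Among peaks of 600 bp or less, the highest lay on chromosome 1 from 79655001 to 79655600, with 28, 166 and 90 reads, against 5 and 7 reads in the neighbouring bins. The next of these narrow peaks, on chromosome 8 from 9975801 to 9976400, held 43, 163 and 33 reads between neighbours of 3 and 3. The other 3, on chromosomes 11, 7 and 2, reached 153, 142 and 138 reads. These 5 peaks went from single digits to over 130 reads and back within 3 called bins. By the dip rule given below, none of the 5 had a dip. A summit of this height was rare at that width, since the 90th percentile of the 600 bp peaks was 47.6 reads.

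The highest bin outside places high in all 4 libraries was on chromosome 9 in the peak from 36515601 to 36518600, with 212 reads (153-fold, 95% Poisson interval 133 to 175). Its 4 bins up to the summit held 24, 52, 131 and 212 reads. The next bins held 52, 2, 23, 58 and 59 reads, so a hump of 59 reads followed the summit across a dip to 2 reads. In the summit bin the references stood at 1.77-fold for H3K27me3, 2.79-fold for MEF H3K9me3 and 9.31-fold for secondary MEF H3K9me3. The next 4 by height were on chromosome 15 from 81682401 to 81687600 (206 reads), chromosome 11 from 48659001 to 48662000 (203 reads), chromosome 9 from 15029401 to 15031400 and chromosome 2 from 90647401 to 90649200 (201 reads each). The Poisson intervals of these 5 summits overlap, so their order is not resolved. For these 5 places, 8 higher peaks were passed over because their summit bin stood at 5-fold or more in every library. Of all peaks, 1034 were of that kind.

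The widest peak covered 14800 bp of chromosome 11, from 94749001 to 94763800, with 65 bins called, a mean of 26.9 reads per bin and a summit of 125 reads. The next were 14600 bp on chromosome 18 from 75491601 to 75506200, 14400 bp on chromosome 5 from 143075201 to 143089600, 14400 bp on chromosome 5 from 114629401 to 114643800, and 13400 bp on chromosome 5 from 123392601 to 123406000. Their means lay between 26.6 and 41.5 reads per bin. Over all 5, the mean of H3K27me3 lay between 0.862-fold and 1.61-fold and that of secondary MEF H3K9me3 between 1.86-fold and 3.99-fold. In the widest peak, bins of 103, 104, 85, 94 and 125 reads lay within 2000 bp of each other. A long tail, mostly under 30 reads per bin, ran on to the right. This peak had the 3.99-fold mean of secondary MEF H3K9me3. Most tail bins held more H3K4me3 reads than reads of that library. The bin from 94761601 held 12 of each, and the bin from 94762801 held 4 and 6.

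**Figure D2:**
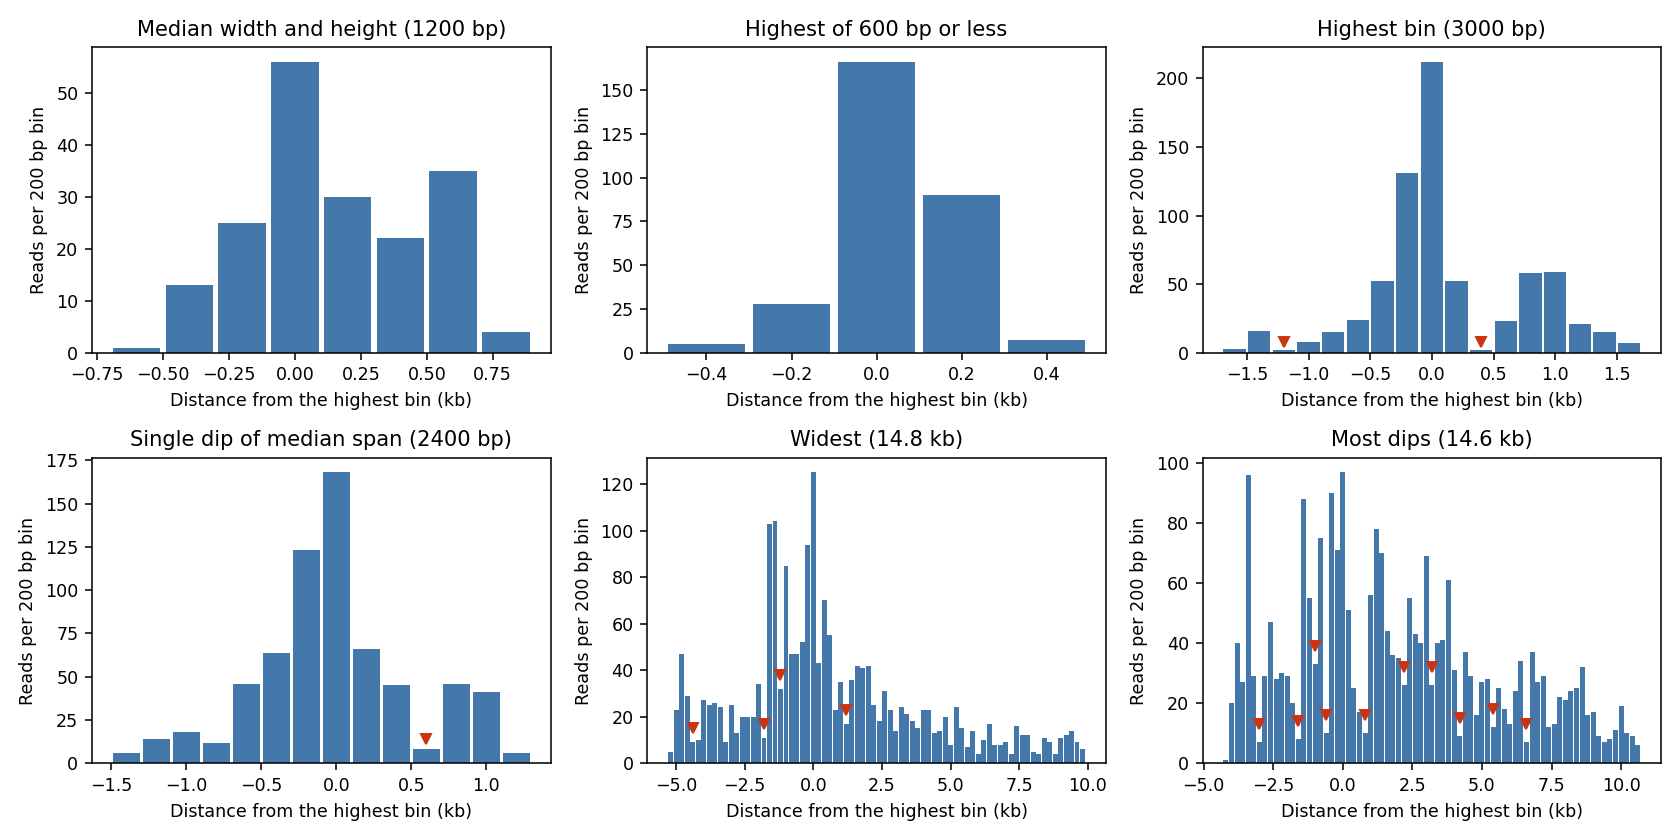
Distinct H3K4me3 reads per 200 bp bin (vertical axis) against distance from the highest bin in kb (horizontal axis) for 6 single peaks, with dips marked by triangles. Narrow peaks rise and fall within 3 bins, the peak with the highest bin has a dip to 2 reads beside its summit, and the widest peaks consist of many humps.

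Dips split 51.5% of the tall and wide peaks into humps. A dip was a bin with at most 0.5 times the reads of the lower of the highest bins on both sides, with a one-sided exact binomial value under 0.001. The dips described here are those of the 11327 peaks of 1000 bp or more with 30 reads or more in the highest bin. A dip was found in 5838 of these peaks (95% Clopper-Pearson interval 50.6 to 52.5%), of which 4294 had 1 dip, 1121 had 2 and 291 had 3. The largest number was 10, in the 14600 bp peak on chromosome 18 named above. The share rests on the scale of the bins: it was 74.7% with 100 bp bins and 21.1% with 400 bp bins, 31.5% with only adjacent called bins joined and 31.4% when reads were not moved. Requiring a read of another library in the dip bin left 40.4%.

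The share with a dip rose steeply with width. It was 13.2% (11.8 to 14.6) in the 2232 peaks of 1000 to 1200 bp, 55.0% (52.8 to 57.2) in the 1995 of 1800 to 2000 bp, and 92.7% (90.9 to 94.2) in the 1029 of 3800 bp or more. A wider peak has more bins in which a dip can be found. By height the share was 32.0% at 30 to 49 reads and 45.1% at 50 to 74 reads, and then stayed between 55.7% and 57.0%. Within 1800 to 2400 bp the share was 58.2% (54.7 to 61.6) at 30 to 74 reads, 63.4% (61.1 to 65.7) at 75 to 124 reads and 57.3% (54.2 to 60.4) at 125 reads or more. Among peaks of similar width it thus did not rise steadily with height. Over the 19 autosomes the share lay between 48.2% and 55.3%.

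The 8017 dips were narrow and deep, but the rules limit both traits. A dip had to hold at most 0.5 times the reads of its lower side. Uncalled bins were bridged over at most 400 bp, so a longer uncalled stretch was a gap between peaks, not a dip. How far these rules shape the widths and ratios below was not tested. The dip bin held a median of 9 reads, against 54 on its lower side and 99 on its higher side. The median ratio of the dip to the lower side was 0.179, with the middle 50% between 0.0847 and 0.296. Of all dips, 57.9% were a single bin wide and 84.7% at most 400 bp. In 49.2% the dip bin was itself not called, and 5.10% held no read. The highest bins on both sides lay a median of 800 bp apart, most often 600 bp (2075 dips) or 800 bp (1687 dips). A dip with the median distance between its sides and a ratio near the median was on chromosome 1 from 95464401 to 95466800. Its higher side, at 168 reads, was above the 95th percentile of 158 reads. Its bins ran 46, 64, 123, 168, 66 and 45 reads, then 8 in the dip, then 46 and 41. In peaks with several dips, neighbouring dips were a median of 1000 bp apart, with the middle 50% between 600 and 1400 bp. On chromosome 19 from 5794801 to 5804400, a 9600 bp peak with 8 dips held a summit of 187 reads between dips to 3 and 6 reads.

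Humps on both sides of a dip were unequal. The higher side had a median of 1.59 times the reads of the lower one, and the 75th percentile was 2.34 times. In peaks with a single dip, the longer side reached a median of 1200 bp from the dip to the edge of the peak and the shorter one 600 bp. The higher side was also the longer one in 73.1% of 3830 such peaks (71.6 to 74.5), and a longer side offers more bins for a high value. Left and right on the chromosome were alike: the higher side lay on the right in 50.2% of 4252 peaks (48.7 to 51.7). Over the tall and wide peaks the summit lay a median of 28.6% of the way from the centre to the edge. It lay past the midpoint of that way in 18.3% of peaks and was at the centre, a distance of 0, at the 10th percentile.

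Dips chosen on the reads of one strand were also present on the other, which was not used for the choice. On plus-strand reads alone 5650 dips were found, and in 85.9% of them (85.0 to 86.8) the minus strand had at most 0.5 times the reads of its lower side in the same bins. In 2.81% it was not lower at all. With the strands exchanged the values were 5621 dips, 85.9% and 2.94%. Summed over these dips, reads of the strand not used for the choice stood at 0.186 and 0.184 times the mean of both sides. With both strands chosen and measured together the ratio was 0.156.

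The same bins were low in the 3 reference libraries as well. Summed over all 8017 dips, the dip bins held 0.156 times the reads of the mean side bin for H3K4me3 (0.155 to 0.157). The ratio was 0.234 for H3K27me3 (0.229 to 0.241), 0.213 for MEF H3K9me3 (0.207 to 0.219) and 0.206 for secondary MEF H3K9me3 (0.201 to 0.211). The 3 references had fewer reads in the dip bin than on the sides in 98.0% of dips. The H3K4me3 ratio was 0.719 times that of the 3 references together (0.707 to 0.731). The choice of dips on H3K4me3 reads lowers this ratio by itself. The references were raised on the sides, at 3.12-fold, 2.87-fold and 4.27-fold in the same order, against 56.8-fold for H3K4me3. In the dip bins they stood at 0.732-fold, 0.610-fold and 0.879-fold. That was below the bins just outside the tall and wide peaks, which held 1.54-fold, 0.951-fold and 1.18-fold. For H3K4me3 the values were 8.86-fold in dip bins and 2.94-fold just outside, but the calling rule keeps the bins just outside low.

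Reads with 2 genome locations, listed at both, took a larger share in dips than on the sides, but their number was not clearly larger in any library. They made up 4.11% of H3K4me3 reads in dip bins and 0.934% in side bins, with 4214 of them in the dip bins and a mean of 5936.5 on each side. In the references these shares were 6.19%, 9.32% and 7.09% in dips against 1.53%, 2.04% and 1.71% on the sides. Their numbers were 437, 540 and 519 in dip bins, against means of 438, 513.5 and 574.5 on each side. In the bins just outside the tall and wide peaks the share was 4.25% for H3K4me3. For the references it was 2.92%, 4.56% and 4.61% there. No reference had a read in 26.8% of dip bins, against 0.430% of side bins. In the 5865 dips with a reference read, the H3K4me3 median ratio was 0.217. Neither mappability nor base composition could be read from a genome of this build, and their part in the dips was not tested. Open DNA with few nucleosomes and poor recovery of the sequence cannot be told apart here.

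At 20 bp steps around the 4294 single dips, turned so that the higher side lay on the right, the dip had a rounded floor. After the 75 bp shift H3K4me3 was highest 250 bp to the left, at 38.3-fold, and 310 bp to the right, at 55.4-fold, with the lowest value of 5.52-fold within 10 bp of the dip centre. The mean of the 3 references had its maxima 270 bp to the left (2.66-fold) and 330 bp to the right (3.14-fold), and its lowest value was 0.534-fold. H3K4me3 divided by this mean went from 15.6 and 19.3 beside the dip to 9.91 in it. The choice of dips and sides on H3K4me3 reads gives such a fall by itself. Before the shift, plus-strand 5′ ends were rarest 70 bp to the left of the centre and minus-strand ends 70 bp to the right. The dip bins were chosen and aligned on reads moved 75 bp. That by itself puts the lowest H3K4me3 value near the centre and the strand minima about 75 bp to either side.

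**Figure D3:**
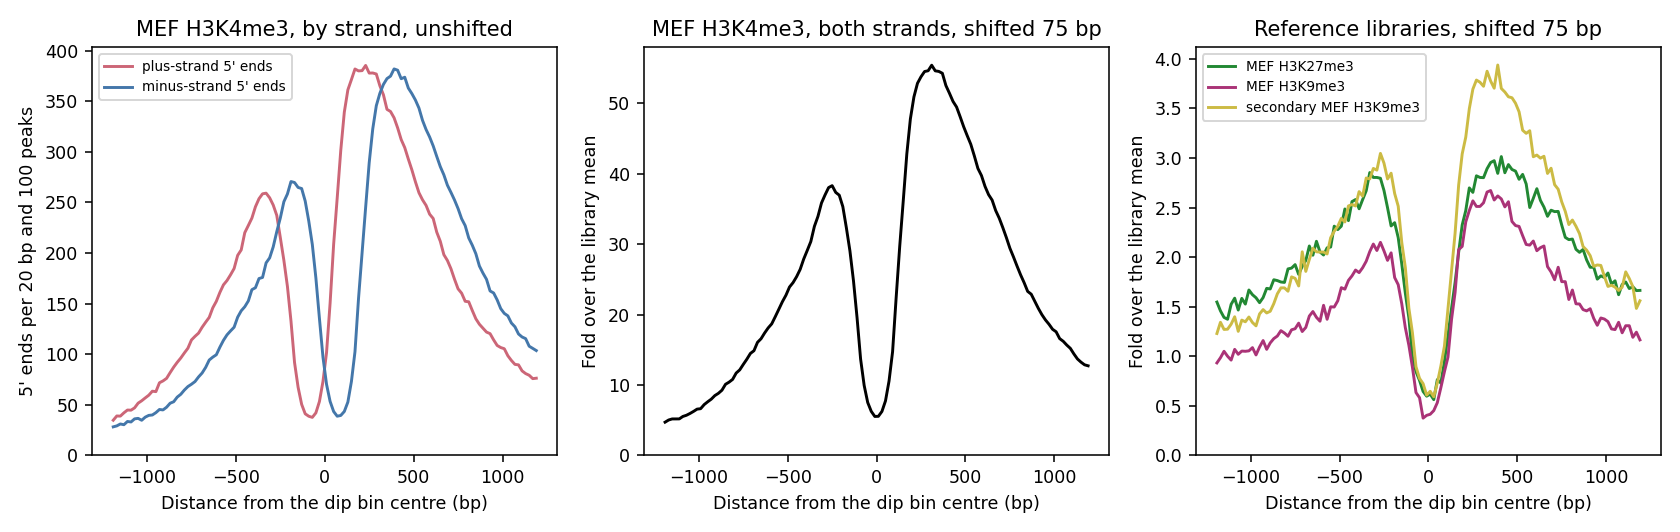
Mean profiles around 4294 single dips in 20 bp steps, with distance from the dip bin centre in bp on the horizontal axis and the higher side turned to the right. The left panel shows 5′ ends of MEF H3K4me3 per strand. In the middle panel both strands were moved 75 bp and are given as fold over the library mean. The right panel shows the 3 reference libraries in the same unit, but on a vertical axis of its own. H3K4me3 falls to 5.52-fold between maxima of 38.3-fold and 55.4-fold, and the references fall at the same place.

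Strand offset had a single broad maximum. Inside peaks, pairs of a plus-strand and a minus-strand 5′ end were most frequent at an offset of 160 bp, counted inclusively, and this offset estimates the fragment length. After smoothing, the maximum lay at 158 bp. The top was broad: offsets from 122 to 199 bp gave at least 95% of the highest number of pairs. Taken per autosome, the offset was 160 ± 3.84 bp (SD over 19 chromosomes, not over replicates), between 153 and 167 bp. It was 141 bp in peaks under 30 reads, 153 bp in peaks of 30 to 99 reads and 161 bp in higher ones, all within that broad top. A second measure was the distance between the median 5′ ends of both strands in each peak. Its median hardly changed with height, at 166.5, 166.5 and 169.5 bp in the same classes. Peaks with and without a dip both gave 158 bp. Over all autosomal reads, the offset was 158 bp for H3K4me3, 154 bp for H3K27me3, 135 bp for MEF H3K9me3 and 149 bp for secondary MEF H3K9me3. Per the labels, gel selection kept inserts of 50 to 200 nucleotides. An offset of 160 bp is close to 2 times the 75 bp shift, so both strands met near the fragment centre. This rests on reading minus-strand positions as the leftmost base: taken as 5′ ends, they would give 125 bp.

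Regular spacing of nucleosomes was not visible in the distances between 5′ ends, which are a weak means to find it. Pairs of plus-strand 5′ ends became steadily rarer with distance, from 395124 at 81 bp to 325430 at 161 bp and 306344 at 201 bp. After smoothing over 21 bp, none of the 400 steps between 100 and 500 bp rose. The curve sums all peaks, so an array present in a few of them would not be seen. It also falls steeply with distance, so weak spacing, even if common, need not show as a rise. Per the labels the chromatin was sonicated, so read ends need not lie at nucleosome edges. Whether nucleosomes were regularly spaced cannot be decided from this curve.

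**Figure D4:**
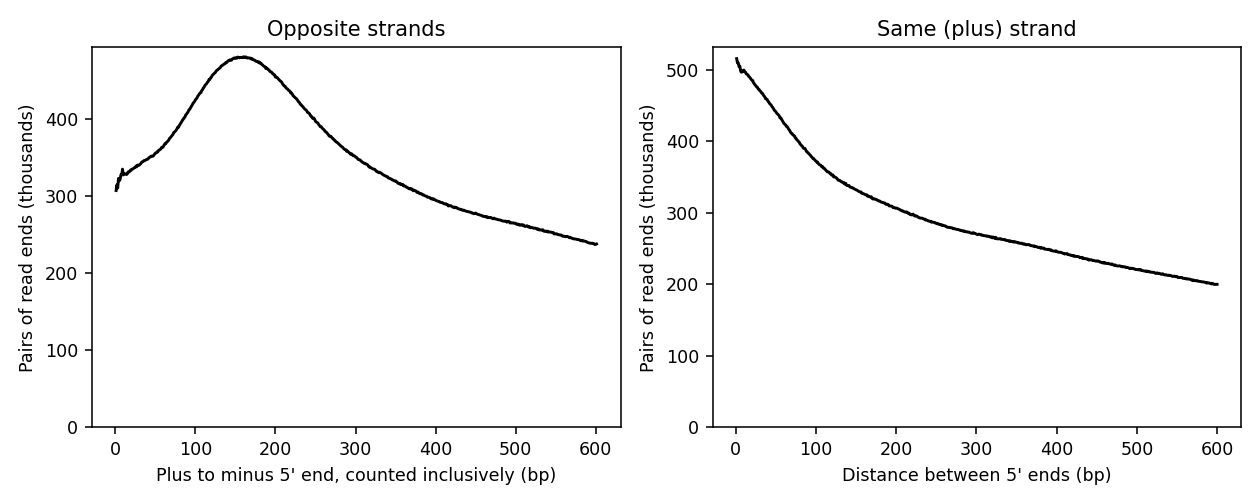
Left, pairs of plus-strand and minus-strand 5′ ends inside H3K4me3 peaks against their offset in bp; right, pairs of plus-strand 5′ ends against their distance in bp; both vertical axes are in units of 1000 pairs. Opposite strands have a broad maximum at 160 bp, and the same-strand curve falls without a second maximum.

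Neighbouring peaks were closer together, and the empty stretches longer, than for points placed at random. The 20745 edge-to-edge distances had a median of 31200 bp (30400 to 31800), a mean of 113978 bp and an SD of 2.90 times the mean. An exponential distribution with this mean, which describes random independent placement, has a median of 79003 bp and an SD equal to its mean. It places points on all sequence, also where no library had a read. Distances up to 2000 bp made up 9.12% (8.73 to 9.52), against 1.74% for the exponential, and those up to 10000 bp 25.9% against 8.40%. At the far end, 1.96% of distances exceeded 1 Mb, against 0.0155%. Among the 12941 peaks of 30 reads or more the same held, with a median distance of 54100 bp against 126834 bp, and 3.44% up to 2000 bp against 1.09%. The median distance depends on joining, and was 19000 bp with only adjacent bins joined.

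Low peaks had a close neighbour more often than high ones. Another peak lay within 2000 bp of 22.2% (21.3 to 23.2) of the peaks under 30 reads and of 13.3% (12.7 to 13.8) of the higher ones. Of the 1891 pairs up to 2000 bp apart, 442 had both peaks at 30 reads or more, 949 had 1 such peak and 500 had none. Of the 7823 peaks under 30 reads, 926 (11.8%, 11.1 to 12.6) lay within 2000 bp of a peak of 30 reads or more. The longest stretches without a peak were on chromosome 1 from 99926601 to 106821400 (6.89 Mb), on chromosome 8 from 98777801 to 105669800 (6.89 Mb) and on chromosome 1 from 113692601 to 120138000 (6.45 Mb). They held 1, 4 and 1 called bins that stood alone, at 0.262, 0.306 and 0.262 reads per tested bin. Of their bins, 41.4% to 48.2% had a read in some library. A bin without a read cannot be called, and the part of such bins in these stretches was not tested.

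Peak density varied widely along the chromosomes. Over the 707 windows of 1 Mb in which at least 80% of bins had a read in any library, the median was 15 peaks (14 to 16), the 5th percentile 4 and the 95th percentile 41.7. The variance was 7.65 times the mean, where random placement gives about 1. That choice of windows favours mark-rich sequence, as bins with marks are read more often. Over the 2365 windows with a read in at least 10% of bins, a limit set after seeing the data, the median was 6 peaks (5 to 6), the variance was 11.5 times the mean and 389 windows (16.4%) had no peak. There, 291 windows with 20 peaks or more, 12.3% of the windows, held 42.5% of the peaks. The densest windows were on chromosome 10 from 80000001 (71 peaks) and from 79000001 (69 peaks), chromosome 19 from 5000001 (67), chromosome 7 from 18000001 (61) and chromosome 2 from 30000001 (60). In these 5 windows between 9.04% and 14.6% of the sequence lay in peaks, and 31 to 52 of the peaks had 30 reads or more.

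Chromosomes with more genes had more peaks. Density was 8.78 ± 2.20 peaks per Mb (SD over 19 autosomes), from 5.84 on chromosome 14 to 12.2 on chromosome 19 and 14.7 on chromosome 11. Protein-coding genes per autosome were counted in a RefSeq table of assembly GRCm38.p6, of which only names and chromosomes were used. Peaks and genes per Mb rose together (Pearson's r 0.885, Spearman's rho 0.932, 19 autosomes of 1 library, as a description). There was about 1 peak per coding gene, 20764 for 20661, and the ratio per chromosome was 1.03 ± 0.120. This near equality depends on the calling rule. Other settings gave between 16127 and 24870 peaks, and 12941 of the 20764 peaks had 30 reads or more. Chromosome 7 had the lowest ratio, 0.733, with 417 olfactory and vomeronasal receptor genes, found by symbol, among its 2030 coding genes. These receptors are known to be expressed in sensory neurons. Without them its ratio was 0.923, below the mean of 1.09 over autosomes, and chromosome 14 was then lowest at 0.873. With receptors counted, chromosome 14 stood at 0.831 with 41 of them and chromosome 2 at 0.960 with 287. Whether these genes account for the low ratio of chromosome 7 was not tested. Peaks were not assigned to genes, so the ratio says nothing about how many genes have a peak. Shape varied less than density, with median widths of 1200 bp on 18 autosomes and 1400 bp on chromosome 19, and median heights from 44 to 62.5 reads.

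**Figure D5:**
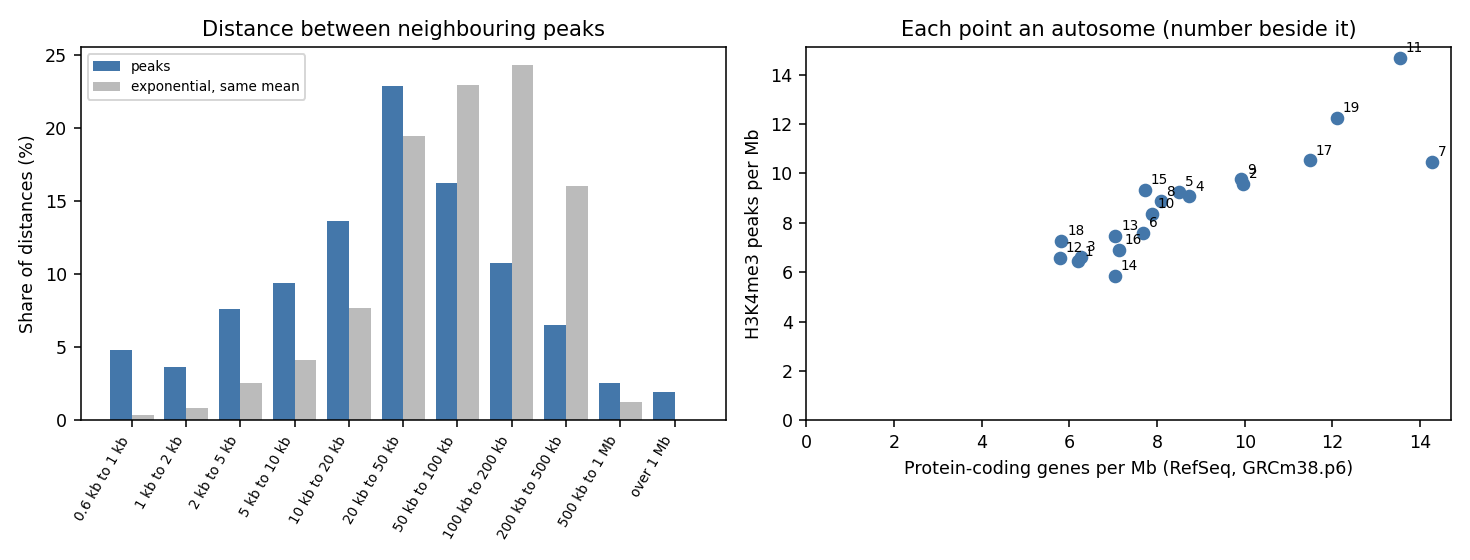
Left, share of the 20745 distances between neighbouring H3K4me3 peaks in each distance class (blue) beside an exponential distribution of the same mean (grey); right, peaks per Mb against protein-coding genes per Mb, with each point an autosome and its number beside it. Short and very long distances are both more frequent than in the exponential, and chromosome 11 has the highest density at 14.7 peaks per Mb.

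The mean profile around the summit narrowed the picture to a few bins. In the 5828 peaks of 100 reads or more the mean was 93.4-fold in the summit bin, 45.2-fold and 46.3-fold in the bins beside it, and 10.8-fold and 11.6-fold at 1000 bp. In the 7823 peaks under 30 reads it was 11.95-fold in the summit bin, 5.65-fold and 6.07-fold beside it, and 2.32-fold on both sides at 1000 bp. Relative to the summit, the fall to the next bin was therefore alike in both classes. The summit bin was picked as the highest, which raises it above its neighbours by itself. The references were also highest in the summit bin, at 4.38-fold for H3K27me3, 3.20-fold for MEF H3K9me3 and 4.26-fold for secondary MEF H3K9me3, over all 20764 peaks. No input library was used, so whether these reads are the marks or background was not tested.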

How the data were processed

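Per the labels and the readme, each deposited value is other than a level: the authors listed the position of every aligned read, negative on the minus strand, without normalisation. Per the file headers, Bowtie placed the reads on mm8 and ran with --best and --concise, a limit of 2 locations (-k 2, -m 2), -n 2 mismatches over a seed of 36 bases (-l 36) and -e 70. The version is not given in the sources used here. Reads with 2 locations are listed apart, and removal of repeated reads is not stated. Per the labels' protocols, sonicated chromatin averaged 500 bp and the gel kept amplified products of 150 to 350 bp.

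Minus-strand positions were taken as the leftmost base. The format does not state this. Plus and minus reads coincided there 1.06 times as often as a few bases away in both H3K9me3 libraries and 1.02 times in H3K27me3, but in H3K4me3 itself the ratio was 1.00. The other reading would move every minus-strand end by 35 bp. A read length of 36 bases was assumed, and whether positions start at 0 or 1 is not stated. Chromosomes 1 to 19 were used, with the first read kept per position and strand. Binning, Poisson calls with Benjamini-Hochberg adjustment, dips, strand offsets (45 to 400 bp) and spacing were computed in Python 3.11.15 with numpy 2.4.6 and scipy 1.17.1, and tested on simulated data. Dip to side ratios have log-normal 95% counting intervals, and medians order-statistic intervals over peaks.

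Named peaks were the 5 highest, 5 widest, 5 with the most dips and 5 highest of 600 bp or less, passing over summits at 5-fold in all 4 libraries, and the 5 densest windows. The 2 peaks shown on chromosome 1 for median values, the peak-free stretches and the receptor genes were picked outside that rule. Rules and members were chosen with earlier results of these data known. No gene annotation or sequence of mm8 was used.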

Additional observations from a re-analysis of the deposited data

How the results depend on the processing

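Of 72 values under other settings, 29 stayed within the interval of the reported value (for peak numbers within 1.5 times, for the offset within 1 SD over autosomes) and 43 moved beyond it. The number of peaks, between 16127 and 24870, stayed within 1.5 times of 20764 under all 10 settings that recomputed it. Values below are in the order median width, median height, share of tall wide peaks with a dip, median distance and median density per Mb, where each moved. With 100 bp bins they were 1000 bp, 46.7-fold, 74.7%, 33900 bp and 23.5 (74 windows), and the strand offset was 153 bp. With 400 bp bins they were 1600 bp, 37.0-fold, 21.1%, 32800 bp and 10 (1379 windows). The reported density rests on 707 windows, so a density with another number of windows covers a different set of them. With only adjacent bins joined they were 800 bp, 34.0-fold, 31.5%, 19000 bp and 18. With gaps up to 1000 bp joined, width, height, dips and distance were 1400 bp, 41.2-fold, 54.7% and 34200 bp. At 4-fold above the other MEF marks they were 1400 bp, 57.1-fold, 53.9%, 39200 bp and 11. Width stayed at 1200 bp under the other settings. There, height, dips, distance and density were 57.1-fold, 53.3%, 41200 bp and 11 at the stricter threshold (8-fold, 1e-06). With 0.5 of the reads they were 55.1-fold, 40.7%, 40800 bp and 12 (612 windows). Without the shift they were 36.4-fold, 31.4%, 32200 bp and 13 (846 windows). With all reads kept, height, dips and distance were 45.6-fold, 54.6% and 33000 bp. Of the 3 settings added after seeing the data, minus-strand positions taken as 5′ ends gave a strand offset of 125 bp, with the other values within their intervals. The other two gave 40.4% for dips at bins with a read of another library and 6 peaks per Mb over 2365 windows. Limits for tall peaks were scaled with the mean. The cause of these moves was not tested.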
